A study of Mus musculus with 6 samples.

Results

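The 39 genes described here are genes that interferons induce in many cell types, together with the genes of antigen processing and presentation by major histocompatibility complex (MHC) class I molecules, as read in cultures of mouse cerebellar granule neurons (CGNs). They were chosen by gene symbol from the 55341 genes of the count tables. The rule held no measured value, but earlier results of these data were known when the genes were chosen. All 39 were found, and all 39 had enough reads to be tested, as did 16729 genes in all. RNA was sequenced in 6 libraries. In 3 of them the cells had received the solvent DMSO, and in 3 the compound GSK-126, which inhibits the histone methyltransferase EZH2. The cultures of both groups came from granule neuron precursors of early postnatal (P6 to P8) wild-type CD-1 IGS mice, an outbred stock, purified on Percoll gradients. Both groups also received the antimitotic agent AraC. The paper's methods give each biological replicate as cells of pooled litters. The labels name the tissue as cerebellum and the time as D3 or DIV3, the third day in vitro, whereas the study's methods place the agent at DIV3 and RNA collection at DIV5, and no dose of GSK-126 is stated for this addition. Libraries with the same replicate number are called a pair below, because their RNA levels deviated from the group means together.

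Cells that meet viral nucleic acid or interferon switch on a shared set of genes. Type I interferons act through a receptor, JAK kinases and a complex of STAT proteins with Irf9, which binds the interferon-stimulated response element (ISRE), whereas interferon gamma acts through STAT dimers at the gamma-activated site (GAS). In the healthy brain this set is low, neurons show little MHC class I on their surface, and microglia and astroglia respond strongly to interferon.

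The DNA of these promoters is shown first, because some of the genes have a DNA motif in common. The genes were chosen as interferon-induced, so their share of ISRE cores says nothing about the levels below. RefSeq promoter windows, running from 250 bases before to 50 bases after a start site in build GRCm38.p6, were found for 30 of the 39 genes, in 39 windows. The ISRE core was searched as GAAA, any 2 bases and GAAA, on both strands, with overlapping matches counted separately. It was found in 13 of the 39 windows, or 33.3%, compared with 3.44% of all 32851 windows in the table. The GAS core, TTC, any 3 bases and GAA, which reads the same on both strands, was found in 9 of the 39 windows, or 23.1%, compared with 8.30% of all windows. The 7 pieces below come from ISRE windows of an antiviral protein conjugate, IFIT and OAS effectors, a virus tether, a GTPase and the MHC class I light chain. They are reference sequence, with 25 bases on each side and the cores in capitals, and TTTC, 2 bases and TTTC is the core read on the other strand.
Isg15, chr4:156200850-156200921, minus strand: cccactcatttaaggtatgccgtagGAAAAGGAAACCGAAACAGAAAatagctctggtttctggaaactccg
Ifit1, chr19:34640760-34640838, plus strand: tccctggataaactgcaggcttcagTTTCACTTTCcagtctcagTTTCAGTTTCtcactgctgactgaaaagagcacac
Ifit3, chr19:34583348-34583441, plus strand: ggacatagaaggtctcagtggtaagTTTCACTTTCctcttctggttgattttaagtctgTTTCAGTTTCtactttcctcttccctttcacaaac
Oas1a, chr5:120907505-120907570, minus strand: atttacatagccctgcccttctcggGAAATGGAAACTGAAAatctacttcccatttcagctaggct
Bst2, chr8:71537562-71537627, minus strand: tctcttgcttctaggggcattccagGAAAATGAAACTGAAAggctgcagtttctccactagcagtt
Gbp2, chr3:142620579-142620638, plus strand: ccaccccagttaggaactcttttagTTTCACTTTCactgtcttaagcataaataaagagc
B2m, chr2:122147523-122147582, plus strand: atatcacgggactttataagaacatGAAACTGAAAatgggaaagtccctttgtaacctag

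The overlapping cores of Isg15 began 78 bases before its start site, those of Oas1a 20 bases before and those of Bst2 130 bases before. Irf1, a transcription factor gene, had no ISRE core in its windows but held a GAS core 90 bases before a start site, shown here as an example of that core. Genes with a GAS core and no ISRE core in their windows also included Ifit2, Isg20, Adar, Ifi35 and Psmb8, all highest in DMSO 3, whereas Irf1 was highest in GSK-126 3.
Irf1, chr11:53769899-53769957, plus strand: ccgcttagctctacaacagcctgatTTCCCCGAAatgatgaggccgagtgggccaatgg
Among genes with a window, the ratio of the highest to the lowest library, computed with 0.5 CPM added, had a median of 5.75 in the 13 genes with an ISRE core and of 4.23 in the 17 without one, and the ranges of both groups overlapped. The median was 5.26 in the 9 genes with a GAS core, 5.14 in the 21 without one, and 9.21 in the 9 genes with no window. No window was found in the table for Oas2, Mx1, Mx2, Usp18, Rtp4, Parp14, Ifi27, Tap2 and Nlrc5. A match of letters is a description of the sequence, and binding was not measured here.

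Counts on genes ranged from 7407189 to 13092763 per library, so that 3 counts correspond to between 0.227 and 0.401 CPM, the unit of expression used here, which divides the reads of a gene by the TMM-scaled size of its library. Libraries of the same number correlated in their deviations from the group means, and no library was a copy of another. In bulk RNA, fewer cells of a type and less RNA per cell cannot be told apart, and this holds for every level below.

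The 39 genes separated the cultures by replicate number far more than by agent. DMSO replicate 3 had the highest level of the 6 libraries for 34 of the 39 genes, compared with 9.54% of all genes tested. Both replicate 3 libraries lay above the other 4 for 30 genes, against 8.54% of all genes, and both replicate 2 libraries lay below the other 4 for 24 genes, against 18.3%. The summed level of the 39 genes was 1528 CPM in DMSO 1, 1278 in DMSO 2 and 4255 in DMSO 3, and 2491, 1451 and 2835 CPM in GSK-126 1, 2 and 3. The sums of DMSO 1 and DMSO 2 were close to that of GSK-126 2 and below those of GSK-126 1 and 3, while the third control had the most of all. Per kilobase of exon, the highest mean level belonged to B2m with 478 CPM, followed by H2-D1 with 99.5 and Bst2 with 79.7, and the lowest to Nlrc5 with 1.05.

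**Figure D1:**
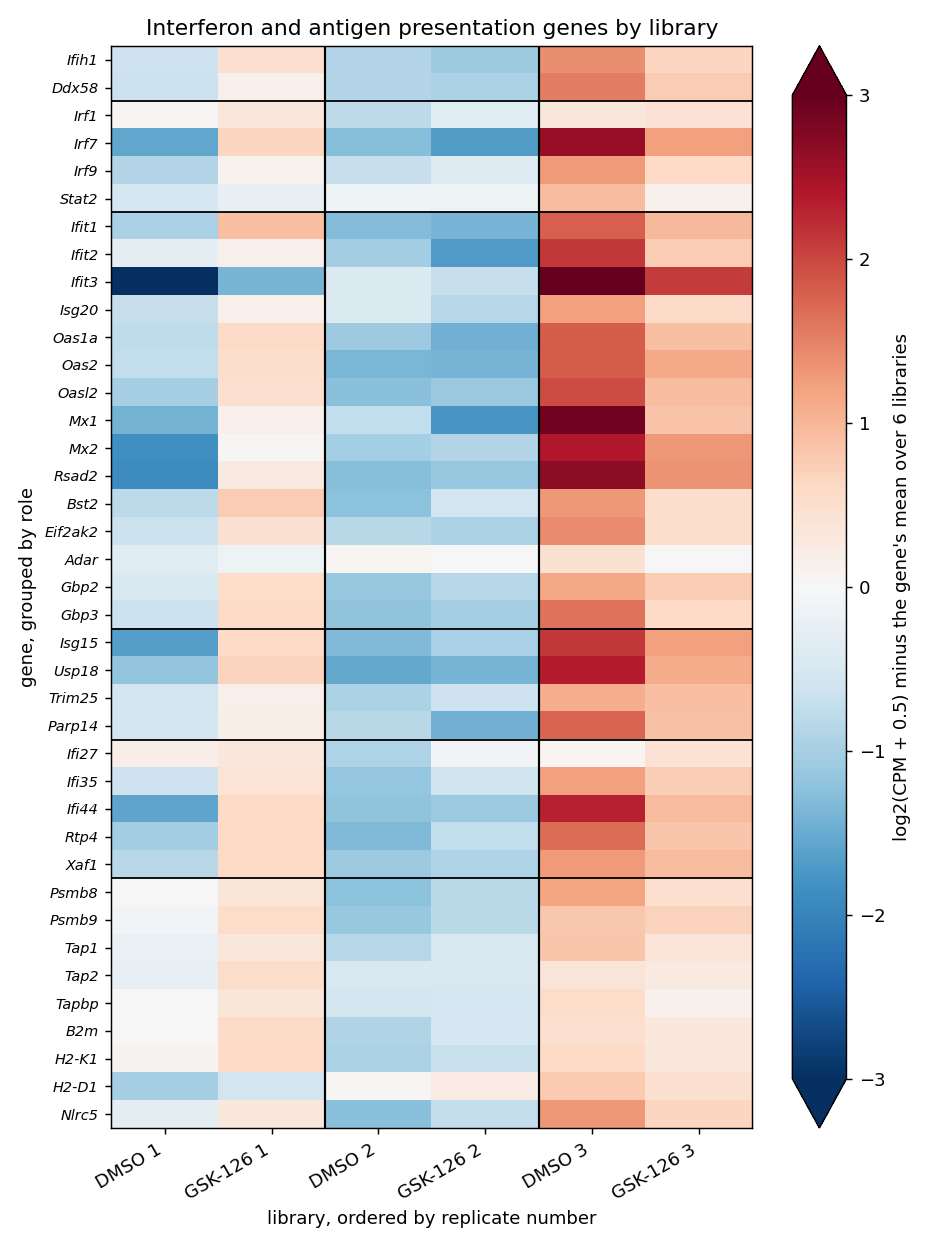
Each row is 1 of the 39 genes, grouped by role, and each column a library, with both libraries of a replicate number side by side. Colour gives log2(CPM + 0.5) minus the mean of that gene over the 6 libraries and saturates at 3 log2 units. DMSO 3 is the highest column for 34 genes, and the replicate 2 columns are mostly blue.

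The spread itself was large. The highest library exceeded the lowest by more than 4-fold, with 0.5 CPM added, for 28 of the 39 genes, compared with 3.94% of all genes tested. The median ratio was 5.50 for the 39 genes and 1.63 for all genes. Of the variance of log2 levels, a median of 81.0% lay between replicate numbers and 1.64% between agents, where all genes had medians of 60.9% and 13.3%. The steepest ratios belonged to Ifit3 (85.4), Mx1 (24.8), Rsad2 (23.8) and Irf7 (19.7), and the smallest to Adar (1.76), Tap2 (2.04) and Tapbp (2.13). The lowest library of Ifit3 held 6 reads, beside 95 reads of its near copy Ifit3b, and the summed level of both ran from 10.3 to 177 CPM.

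**Figure D2:**
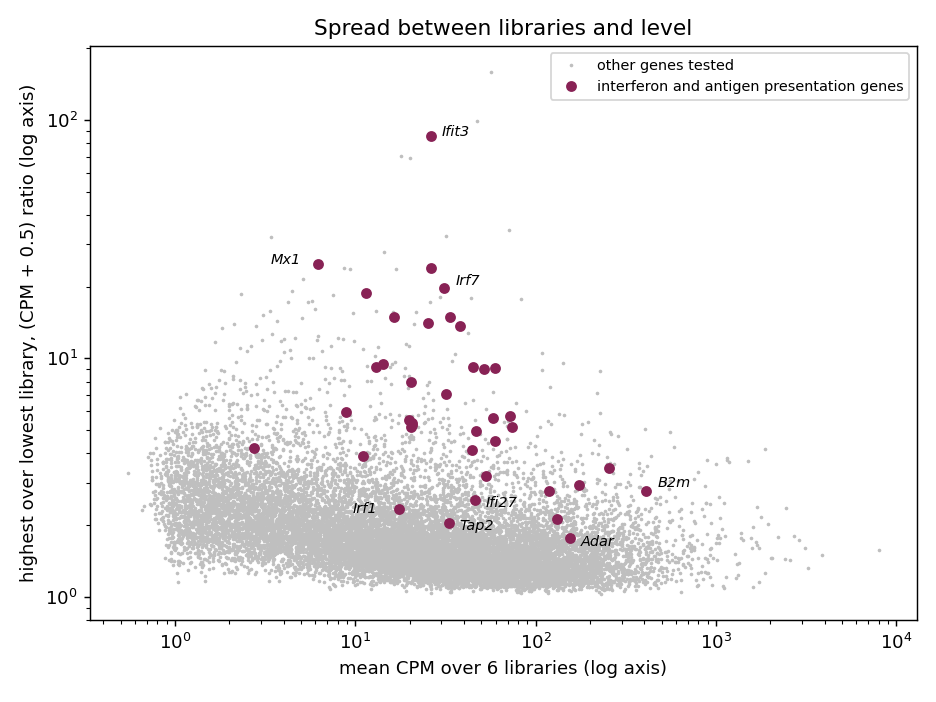
Each point is a gene, with its mean CPM over 6 libraries on the horizontal log axis and the ratio of its highest to its lowest library, 0.5 CPM added, on the vertical log axis. The 39 genes have a median ratio of 5.50, and all 16729 genes a median of 1.63.

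The cytoplasmic RNA sensors followed this order. Ddx58, which encodes the RNA sensor RIG-I, had 29.6, 25 and 136 CPM in DMSO 1, 2 and 3, and 52.1, 23.9 and 79.2 CPM in GSK-126 1, 2 and 3. Ifih1, which encodes the long double-stranded RNA sensor MDA5, had 10.5, 8.67 and 43.7 CPM with DMSO and 23.4, 7.54 and 25.8 CPM with GSK-126. For both sensors the GSK-126 library was above its control in pair 1 and below it in pairs 2 and 3, and the groups overlapped.

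Among the 4 genes of signal transduction and transcription, Irf7 and Irf1 were at opposite ends. Irf7, the factor that amplifies type I interferon production, had 5.31, 6.53 and 105 CPM with DMSO and 26.4, 4.85 and 39.5 CPM with GSK-126. Irf9, the DNA-binding subunit of the ISRE complex, had 27.8, 31.8 and 127 CPM with DMSO and 55.5, 39.4 and 78.0 CPM with GSK-126, and Stat2, its partner in that complex, ranged from 76.8 in DMSO 1 to 214 CPM in DMSO 3. Irf7 and Irf9 thus shared the excess of DMSO 3, at 19.7 and 4.56 times their levels in DMSO 1. Irf1, a factor that interferon gamma induces strongly (ENSMUSG00000018899.16, chromosome 11, 53770014 to 53778374, GRCm38), had 17.3, 9.51 and 21.3 CPM with DMSO and 21.5, 13.0 and 22.8 CPM with GSK-126. It was 1 of only 2 of the 39 genes that were higher with GSK-126 in all 3 pairs, and its groups still overlapped. In its exons, 135 bp overlap Gm17334 on the opposite strand, and the strand setting of the counting is not given in the sources used here.

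The 15 antiviral effectors all had their highest level in DMSO 3, and in 12 of them both replicate 3 libraries exceeded the rest. Ifit1, whose protein binds foreign RNA caps, had 18.1, 14.5 and 125 CPM with DMSO and 68.0, 13.5 and 71.1 CPM with GSK-126. Rsad2, which encodes the radical enzyme viperin, had 3.35, 5.41 and 91.2 CPM with DMSO and 16.6, 6.03 and 35.9 CPM with GSK-126. The 2 control cultures 1 and 2 were low for both genes, and the GSK-126 cultures 1 and 3 lay between them and DMSO 3. Mx1, a dynamin-like GTPase that blocks viruses (ENSMUSG00000000386.15, chromosome 16, 97447035 to 97462907), had 0.807, 1.58 and 25.2 CPM with DMSO, and 3.33, 0.538 and 5.74 CPM with GSK-126. These were 7, 17 and 290 reads with DMSO and 44, 5 and 43 reads with GSK-126, so the low libraries rest on few reads. Bst2, the tether that holds virus particles at the cell surface (ENSMUSG00000046718.8, chromosome 8, 71534255 to 71537456), had 33.9, 25.1 and 147 CPM with DMSO and 101, 39.5 and 86.0 CPM with GSK-126. Its pair 2 difference was 0.65 on the log2 scale, so that it was higher with GSK-126 in pairs 1 and 2 and lower in pair 3.

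Other effectors also had their highest level in DMSO 3, with smaller or larger ratios. Gbp2, a guanylate-binding GTPase (ENSMUSG00000028270.12, chromosome 3, 142620602 to 142638008), had 28.5, 17.6 and 89.3 CPM with DMSO and 57.8, 21.6 and 66.8 CPM with GSK-126. In its exons, 24 bp overlap Mir6381 on the opposite strand. Oas1a, an oligoadenylate synthetase that activates RNase L, had 5.77, 4.48 and 36.9 CPM with DMSO and 15.5, 3.45 and 19.4 CPM with GSK-126. Eif2ak2, the kinase PKR that halts translation, ranged from 31.4 CPM in GSK-126 2 to 165 in DMSO 3, and Oasl2 from 17.2 in DMSO 2 to 162 in DMSO 3. Adar, the adenosine deaminase that edits double-stranded RNA, was the flattest, with 119, 159.9 and 210.2 CPM with DMSO and 137, 151 and 150.5 CPM with GSK-126. Exons of Adar overlap Chrnb2 on the opposite strand by 1365 bp. Adar thus kept DMSO 3 as its highest library, but its replicate 1 libraries were the lowest, and the other 5 libraries lay between 119 and 159.9 CPM.

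The ISG15 system and the related modifiers had the steepest median ratio of any role, 11.5. Isg15, a ubiquitin-like protein that is conjugated to others during infection, had 7.27, 9.32 and 106 CPM with DMSO and 36.5, 12 and 56.9 CPM with GSK-126. Usp18, the protease that removes ISG15 and dampens receptor signalling, had 8.42, 6.53 and 104 CPM with DMSO and 31.7, 7.22 and 43.7 CPM with GSK-126. In both genes DMSO 3 was over the other 2 controls by 11.4-fold or more. Trim25, the ubiquitin ligase that acts with RIG-I (ENSMUSG00000000275.16, chromosome 11, 88999376 to 89020293), had 25.5, 19.5 and 82.0 CPM with DMSO and 42.2, 24.4 and 71.7 CPM with GSK-126. Parp14, an ADP-ribosyltransferase, ranged from 12 CPM in GSK-126 2 to 114 in DMSO 3.

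Of the 5 remaining interferon-induced genes, Ifi27 stood apart. Ifi27, which encodes a small membrane protein of mitochondria and the nuclear envelope (ENSMUSG00000064215.13, chromosome 12, 103434211 to 103440239), had 51.0, 23 and 45.8 CPM with DMSO and 56.2, 41.5 and 59.4 CPM with GSK-126. Each GSK-126 library was above its paired control, yet DMSO 1 exceeded GSK-126 2, so the groups overlapped. Ifi44 ranged from 3.00 CPM in DMSO 1 to 51.5 in DMSO 3. Xaf1, a protein linked to cell death (ENSMUSG00000040483.15, chromosome 11, 72301629 to 72313733), had 9.0, 7.46 and 40.4 CPM with DMSO and 25, 8.40 and 31.9 CPM with GSK-126. Ifi44 and Xaf1 followed the order of the effectors, as did Rtp4 and Ifi35, with DMSO 3 highest in all 4.

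**Figure D3:**
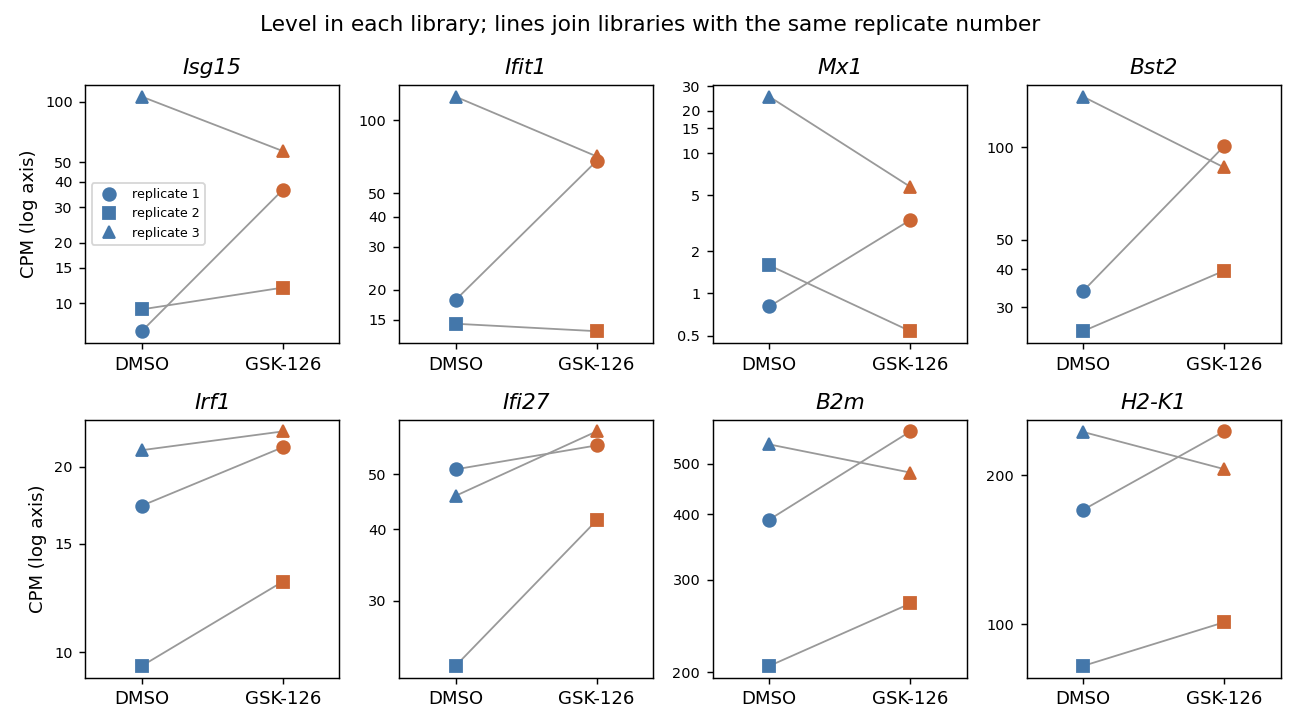
Levels of 8 of the genes in CPM, on a log axis in each panel, with DMSO on the left and GSK-126 on the right. Each point is a library, its shape gives the replicate number, and grey lines join libraries of a pair. For Isg15, Ifit1, Mx1, Bst2, B2m and H2-K1 the line of replicate 1 points up and that of replicate 3 down, and all 3 lines point up for Irf1 and Ifi27.

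The 9 genes of antigen processing and presentation varied less, with a median ratio of 3.21 between the highest and lowest library, and DMSO 3 was highest in 6 of them. B2m, the light chain of MHC class I (ENSMUSG00000060802.8, chromosome 2, 122147686 to 122153083), had 391, 206 and 544 CPM with DMSO and 576, 271 and 481 CPM with GSK-126. H2-K1, a class I heavy chain (ENSMUSG00000061232.16, chromosome 17, 33996017 to 34000347), had 170.1, 82.5 and 244 CPM with DMSO and 245, 101 and 206 CPM with GSK-126. For both chains GSK-126 1 and DMSO 3 were the 2 highest libraries, and the replicate 2 libraries were the lowest. Tap2, a subunit of the peptide transporter of the endoplasmic reticulum (ENSMUSG00000024339.12, chromosome 17, 34203527 to 34216321), had 26.5, 22.7 and 41.8 CPM with DMSO and 46.2, 22.4 and 38.2 CPM with GSK-126. In its exons, 698 bp overlap Gm20496 and Gm15821 on the opposite strand. Tap1, the other subunit, ranged from 27.1 CPM in DMSO 2 to 88.2 in DMSO 3, and Tapbp, which encodes the loading factor tapasin, from 86.7 to 186 CPM in the same libraries. Exons of Tapbp overlap Gm19412 on the opposite strand by 904 bp and Zbtb22 on the same strand by 149 bp. Nlrc5, the transactivator of class I genes, had 6.0, 2.80 and 19.1 CPM with DMSO and 9.32, 4.31 and 11.8 CPM with GSK-126. Nlrc5 and Psmb8, with ratios of 5.95 and 5.38, were the steepest of the presentation genes.

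H2-K1 and the second classical heavy chain, H2-D1, did not follow each other between cultures. H2-D1 had 117, 242 and 408 CPM with DMSO and 162, 279 and 332 CPM with GSK-126. The ratio of H2-K1 to H2-D1 reads was 1.45 in DMSO 1 and 1.51 in GSK-126 1, 0.341 and 0.363 in the replicate 2 libraries, and 0.598 and 0.619 in the replicate 3 libraries. This ratio thus moved with the replicate number and differed little within a pair. Reads were also divided unevenly between Ifit3 and its near copy Ifit3b, with the replicate 1 libraries set apart. Ifit3, a partner of Ifit1 (ENSMUSG00000074896.3, chromosome 19, 34583531 to 34588731), had 0.692, 6.81 and 101 CPM with DMSO and 3.18, 5.49 and 40.9 CPM with GSK-126. The ratio of Ifit3 to Ifit3b reads was 0.0632 and 0.0619 in the replicate 1 libraries, whereas it was 1.83 and 1.13 in replicate 2 and 1.34 and 1.31 in replicate 3. Class I and Ifit genes have near-identical copies and alleles that differ between mice, so the assignment of reads to Ifit3 and to each heavy chain is uncertain, and the cause of these ratios was not tested. The summed level of Ifit3 and Ifit3b was 11.7, 10.5 and 177 CPM with DMSO and 54.6, 10.3 and 72.0 CPM with GSK-126, the order of Ifit1.

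The immunoproteasome subunits Psmb8 and Psmb9, which replace the constitutive subunits encoded by Psmb5 and Psmb6 after interferon, were compared with them per kilobase of exon. Psmb8 had 0.209, 0.157 and 0.463 of the level of Psmb5 with DMSO and 0.466, 0.215 and 0.357 of it with GSK-126. Psmb9 had 0.0586, 0.0343 and 0.113 of the level of Psmb6 with DMSO and 0.0898, 0.0355 and 0.105 of it with GSK-126. Both ratios were lowest in DMSO 2 and stayed below 1 in every library. For Psmb8 the latter depends on the length used, 3381 bp over all its annotated exons. In reads, Psmb8 was above Psmb5 in DMSO 3 (470 and 270), GSK-126 1 (300 and 171) and GSK-126 3 (188 and 140). It was below Psmb5 in DMSO 1, DMSO 2 and GSK-126 2. Psmb9 was below Psmb6 in reads of every library. In their exons, 212 bp of Psmb9 overlap Tap1 and 498 bp of Psmb8 overlap Gm20496, in each case on the opposite strand.

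Against this spread between cultures, the comparison of GSK-126 with DMSO gave a different answer in each pair. In pair 1 all 39 genes were higher with GSK-126, compared with 50% of all genes tested, and their median difference was 1.01 on the log2(CPM + 0.5) scale. In pair 2, 24 of 39 were higher, compared with 46.9% of all genes, with a median difference of 0.14. In pair 3 only Irf1 and Ifi27 were higher, compared with 49.0% of all genes, and the median difference was -0.75. Thus 37 of the 39 genes were higher in pair 1 and lower in pair 3, a combination that 19.8% of all genes had. Irf1 and Ifi27 were higher in all 3 pairs, where 19.5% of all genes were, and 0 of the 39 were lower in all 3, where 22.8% of all genes were. The groups were separate, with no overlap, for 0 of the 39 genes, against 9.44% of all genes, and 3 libraries against 3 allow no two-sided exact permutation p below 0.1.

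**Figure D4:**
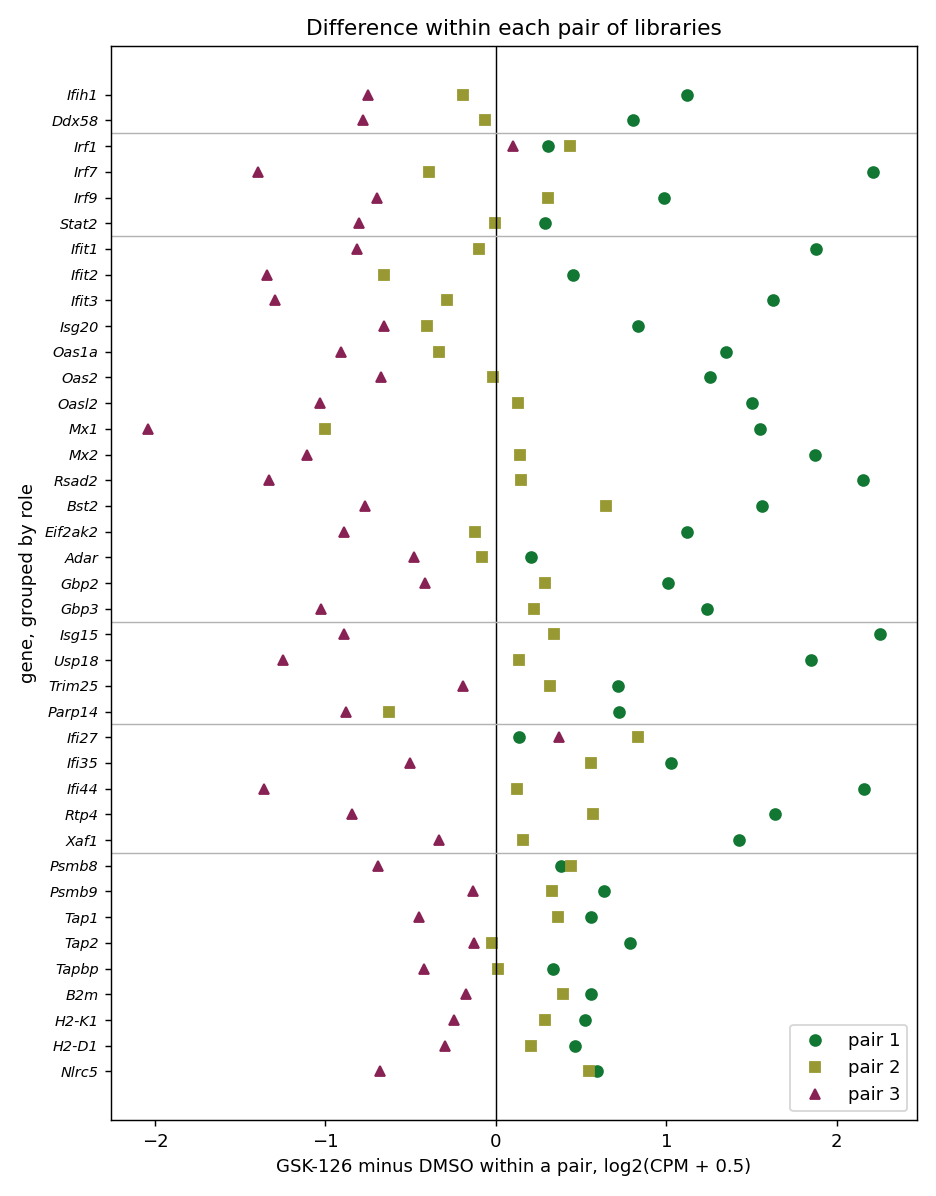
The horizontal axis gives the difference of GSK-126 minus DMSO within a pair in log2(CPM + 0.5), for the 39 genes grouped by role. Circles are pair 1, squares pair 2 and triangles pair 3. All 39 circles lie right of 0, and 37 triangles lie left of it.

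The size of this split differed by role. The antiviral effectors had median differences of 1.35, -0.080 and -0.91 in pairs 1, 2 and 3, and the ISG15 system and modifiers 1.29, 0.23 and -0.88. The presentation genes had 0.56, 0.33 and -0.30, and 8 of the 9 were higher with GSK-126 in pair 2, where 6 of the 15 effectors were. In single genes, Isg15 had the largest difference of pair 1, 2.25, and Mx1 the most negative one of pair 3, -2.04.

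Without a block for the replicate number, 0 of the 39 genes were called in either direction, where a call is a Benjamini-Hochberg adjusted p under 0.05 in edgeR's quasi-likelihood test over all genes. Of all genes tested, 0% were called higher with GSK-126 and 0% lower. An unadjusted p under 0.05 was reached by 0 of the 39, against 3.98% of all genes in either direction, and the smallest adjusted p among them was 0.953 (edgeR). DESeq2 without the block likewise called 0 of the 39, where it called 0.13% of genes higher and 0.0137% lower. The median log2 fold change of the 39 genes was -0.16 beside -0.0071 for all genes tested, without DMSO 3 it was 0.98, and without GSK-126 2 it was 0.15. The sign of the median thus rested on either of these 2 cultures.

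With the replicate number as a block, edgeR called 1 of the 39 genes higher, Ifi27, where 3.35% of all genes were called higher, and called 0 lower, where 5.09% were. In the controls the mean of Ifi27 was 39.9 ± 14.9 CPM (SD, n = 3), below the 52.4 ± 9.57 CPM (SD, n = 3) of the GSK-126 group, which the block fit of edgeR gave as 0.44 on the log2 scale with a standard error of 0.12 and an adjusted p of 0.0287. Without the block the same gene had 0.39 with a standard error of 0.29 and an adjusted p of 0.953 (edgeR). Its value fell to 0.12 without DMSO 2 in the fit with no block and to 0.26 without pair 2 in the block fit. DESeq2 with the block gave Ifi27 an adjusted p of 0.0777 and called 0 of the 37 genes to which it gave an adjusted p, where it called 2.85% of genes higher and 4.87% lower. The median over the 39 genes in the block fit was 0.086 beside -0.0056 for all genes.

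At an unadjusted p under 0.05 in the block fit of edgeR, 2 of the 39 genes were higher, against 9.43% of all genes, and 2 were lower, against 12.1%. The higher ones were Ifi27 and B2m, and the lower ones Ifit2 and Ifit3. B2m went from 380.1 ± 169 to 442 ± 156 CPM (SD, n = 3 each), which edgeR's block fit gave as 0.26 on the log2 scale (standard error 0.10, adjusted p = 0.130). Ifit2, a partner of Ifit1 on the same chromosome (ENSMUSG00000045932.12, chromosome 19, 34550694 to 34576419), had 14.1, 8.11 and 76.4 CPM with DMSO and 19.4, 4.95 and 29.8 CPM with GSK-126. The block fit of edgeR gave Ifit2 -0.57 on the log2 scale (standard error 0.23, adjusted p = 0.147), although it was higher with GSK-126 in pair 1. Ifit3 had -0.61 (standard error 0.29, adjusted p = 0.230, edgeR block fit), and DESeq2 with the block gave it 0.076, the other sign. None of these 3 passed the adjusted threshold.

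The other members with the smallest p in the block fit of edgeR did not pass either. Trim25 had a log2 fold change of 0.26 (standard error 0.14, adjusted p = 0.291), Irf1 one of 0.28 (standard error 0.15, adjusted p = 0.30) and H2-K1 one of 0.19 (standard error 0.11, adjusted p = 0.324). Bst2 had a log2 fold change of 0.43 (standard error 0.25, adjusted p = 0.333) and Xaf1 one of 0.39 (standard error 0.23, adjusted p = 0.355). Gbp2 had a log2 fold change of 0.27 (standard error 0.17, adjusted p = 0.397) and Tap2 one of 0.22 (standard error 0.15, adjusted p = 0.425). All 7 of these were higher with GSK-126 in pair 1. Mx1 had the most negative log2 fold change, -0.88 (standard error 0.49, adjusted p = 0.313), and was higher with GSK-126 in pair 1 only.

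The calls of the block fit turned on which pair was left out. Without pair 3, 21 of the 39 genes were called higher, where 3.3% of all genes were, and 0 lower, where 4.25% were, and the 21 included Bst2, Isg15, Ifit1 and B2m. Without pair 1, 15 were called lower, where 3.98% of all genes were, and 1 higher, where 2.47% were, and the 15 included Irf7, Ifit2, Mx1 and Rsad2, while Ifi27 was the higher one. Without pair 2, 0 were called in either direction, where 2% of all genes were called higher and 2.95% lower, and Ifi27 had an adjusted p of 0.251 (edgeR). With no filter on low counts, the block fit called Bst2, B2m and Ifi27 higher and Ifit2, Ifit3 and Mx1 lower, where 2.5% and 2.97% of all genes were called. In all, 8 genes were called higher without pair 3 and lower without pair 1, Irf7, Rsad2, Usp18, Eif2ak2, Ifi44, Oasl2, Ifit1 and Gbp3. In pair 2, Irf7, Eif2ak2 and Ifit1 were lower with GSK-126, by -0.39, -0.12 and -0.099 in log2(CPM + 0.5). The rest of the 8 were higher in pair 2, by 0.12 to 0.22. Each of the 8 thus had 1 call from 2 pairs that differed in sign. No direction over the 3 pairs could be given for these genes.

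The interferons themselves were nearly absent from the reads. Of 11 interferon genes listed, 9 had 0 counts in all 6 libraries, among them Ifnb1 and Ifng, where 0 counts allow up to 0.227 to 0.401 CPM. Ifna4 had 4 reads and Ifnk 1 read, all in GSK-126 3. The receptors and kinases were present and flat. Ifnar1, a type I receptor chain, had 159.5, 125 and 104 CPM with DMSO and 149.6, 119 and 117 CPM with GSK-126, and Jak1, a kinase that both receptors use, had 274, 251 and 279 CPM with DMSO and 293, 233 and 292 CPM with GSK-126. Of 19 listed genes of the receptors and JAK-STAT signalling, 18 were tested, 0 were called in either fit and their median ratio of highest to lowest library was 1.44. Of 18 listed genes of nucleic acid sensing, 16 were in the tables, 15 were tested and 0 were called in either fit, with a median ratio of 2.11.

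A longer list of 48 other interferon-induced genes had the same order of libraries. Of its 46 tested genes, 45 were highest in DMSO 3, 0 were called in either fit, and their summed level was 839, 622 and 2567 CPM with DMSO and 1360.4, 665 and 1560.5 CPM with GSK-126. In pairs 1, 2 and 3, 42, 26 and 1 of the 46 were higher with GSK-126. Of the other class I presentation genes, 18 of 19 were tested, 5 were highest in DMSO 3 and 0 were called. Of the 8 class II genes, 5 were tested and 0 were called, with a summed level of 40.8 to 55.2 CPM over the 6 libraries. Most of this sum came from H2-DMa in every library, with 40.7 of the 55.2 CPM in DMSO 2. The highest levels of H2-Ab1, H2-Eb1 and H2-Aa in any library were 2.19, 1.65 and 0.606 CPM. The 7 constitutive proteasome subunits, all tested, had a median ratio of 1.4 and 0 calls. DMSO 3 was highest for 4 of the 18 receptor and JAK-STAT genes and for 1 of the 7 constitutive subunits, and no test compared the lists.

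Markers of other cells varied between cultures in another order. Of 13 microglia and macrophage markers, 12 were tested and Trem2 was at 0 in all libraries. Their summed level ranged from 438 to 890.1 CPM with DMSO and from 613 to 1092 CPM with GSK-126. It was highest in GSK-126 1 and lowest in both replicate 2 libraries. In the block fit of edgeR, 5 of the 12 were called higher, where 3.35% of all genes were. Among them was C1qa, with a log2 fold change of 0.48 (standard error 0.086, adjusted p = 0.000964, edgeR block fit). Without the block, C1qa had 0.44 (standard error 0.37, adjusted p = 0.953, edgeR), and 0 genes of the cell marker lists were called. Within pair 3 the microglial sum was higher with GSK-126, at 931 against 773 CPM in DMSO 3, where the interferon-induced genes were lower. The 9 astroglia markers, all tested, summed to 2386 to 7344 CPM with DMSO and 2280.3 to 7727 CPM with GSK-126. Their sum was highest in pair 1, and 2 of them were called higher in the block fit. The 8 fibroblast and mural markers summed to 5249 to 7242 CPM with DMSO and 6479 to 7984 CPM with GSK-126. Their sum was highest in both replicate 3 libraries, as were 30 of the 39 genes, and 3 of them were called higher in the block fit.

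The remaining lists were smaller or less variable. The endothelial sum ranged from 71.9 to 89.9 CPM with DMSO and from 55.5 to 91.3 CPM with GSK-126, with 5 of 7 genes tested and 0 called. The 8 oligodendrocyte lineage markers summed to 421.5 to 730.4 CPM with DMSO and 508 to 769 CPM with GSK-126, with 1 called higher in the block fit. The 10 granule neuron markers, which were present in every library, summed to 3528 to 5497 CPM with DMSO and 2880.4 to 4369 CPM with GSK-126, and were highest in replicate 2. In the block fit 5 of them were called lower, Gabra6, Neurod1, Zic1, Rbfox3 and Etv1, and 2 higher, Tubb3 and Barhl1. Of all genes, 5.09% were called lower and 3.35% higher in that fit. The replicate 2 libraries thus had the most granule neuron RNA of these lists and the least microglial and interferon-induced RNA, and the part of cell composition in the levels of the 39 genes was not tested.

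**Figure D5:**
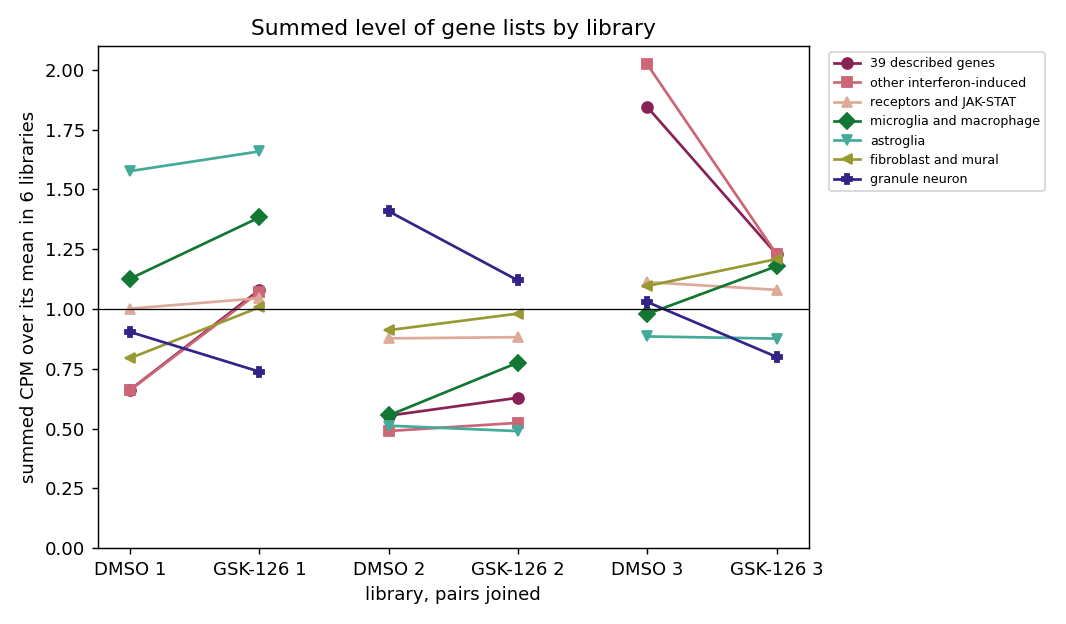
Summed CPM of 7 gene lists in each library, divided by the mean of that list over the 6 libraries, with lines joining the libraries of a pair. The 39 genes and the other interferon-induced genes peak in DMSO 3, the microglial and astroglial lists in GSK-126 1 and the granule neuron list in DMSO 2.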

How the data were processed

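RNA-seq of 6 CGN cultures, 3 with DMSO and 3 with GSK-126, was analysed. The authors trimmed and aligned the reads (Trimmomatic 0.38, STAR 2.7.2b and mm10 in the submitters' processing notes), counted exonic reads per gene with HTSeq, and deposited raw counts with no normalization. The gene symbols are exactly those of GENCODE M21, which gave identifiers and GRCm38 coordinates. The paper's methods name a Gencode GTF of GRCm38.p4, whose release number, like the strand setting, is not given in the sources used here. Lines that name no gene, with 58.7% to 60.7% of the reads listed per library, were left out. Counts per library, 7407189 to 13092763, set the precision of low genes.

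Counts were tested in R 4.3.3 with edgeR 4.0.16 (TMM, filterByExpr, quasi-likelihood test, Benjamini-Hochberg adjustment over 16729 genes, threshold 0.05), with no block, and with the replicate number as a block. DESeq2 1.42.0 was an alternative. Standard errors are the log2 fold change divided by the square root of F. Levels are TMM-scaled CPM, and 0.5 CPM was added before logs. Other alternatives were scaling by upper quartiles or by total counts, a filter of 10 counts in each library or none, an adjusted p under 0.01, and each library or pair left out. The fits were tested on simulated data.

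Deviations from the group means correlated at 0.56, 0.63 and 0.49 between libraries of the same number and at 0.0064 or less otherwise, so the numbers pair the libraries. Beyond pooled litters, the sources do not say what a number shares, so p-values measure the spread between these libraries. The 39 genes and the lists were chosen with earlier results of these data known. Full statistics are given for members past the threshold in either edgeR fit and then for those with the smallest block p, up to 12 genes. Of the called genes of other lists, C1qa and those of the granule neuron list are named. Promoters are RefSeq windows of GRCm38.p6.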

Additional observations from a re-analysis of the deposited data

How the results depend on the processing

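The counts of 0 members called without the block held with DESeq2, with scaling by upper quartiles or by total counts, with a filter of 10 counts in each library or none, at an adjusted p under 0.01 and with each library left out. The replicate block gave 1 called higher. In the block fit, that 1 became 0 with DESeq2 and 3 with no filter, which also gave 3 called lower. Leaving out a pair gave 0 to 21 called higher and 0 to 15 called lower. The median log2 fold change ranged from -0.53 to 0.98 without the block and one library left out, the highest value being without DMSO replicate 3, and from -0.40 to 0.54 with the block and one pair left out. The cause was not tested, beyond the fewer libraries in these fits.

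Among single genes, Ifit3 turned to 0.076 with DESeq2 and the block. With one library left out and no block, the log2 fold change ranged from -0.076 to 0.57 for B2m, -1.42 to 0.70 for Ifit2, -3.08 to 2.08 for Ifit3, -0.34 to 1.04 for Trim25, -0.011 to 0.52 for Irf1, -2.20 to 1.38 for Mx1, -0.17 to 0.54 for H2-K1, -0.26 to 1.36 for Bst2, -0.19 to 1.4 for Xaf1 and -0.27 to 1.08 for Gbp2, so each changed sign. With one pair left out and the block, it ranged from -1.0 to 0.53 for Ifit3, -2.01 to 0.46 for Mx1, -0.12 to 1.15 for Bst2, -0.13 to 0.88 for Xaf1, -0.10 to 0.69 for Gbp2 and -0.065 to 0.41 for Tap2. Ifi27 stayed above 0 in every alternative and passed the threshold in none of those without the block, where it ranged from 0.12 without DMSO replicate 2 to 0.62 with one library left out. In the block fit it ranged from 0.26 without pair 2 to 0.61 without pair 1. It lost its block call with DESeq2 and without pair 2.

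The depth limits Mx1, Isg20 and the low libraries of Ifit3, where 10 or fewer reads decide a level in some libraries. Fits with a pair left out rest on 4 libraries.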
